A study of Mus musculus with 4 samples.

Results

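Long transcribed stretches are runs of the genome, 100 kb or more, over which RNA polymerase was found on 1 strand without a gap. They were measured by GRO-seq, in which polymerases already on the DNA extend their RNA in isolated nuclei and the labelled RNA is read by position and strand. The cells were 3T3-L1, an established mouse preadipocyte line. One set received control siRNA (siCTL) and the other had GPS2 targeted by siRNA (siGPS2), and cells had been given FCCP for 0 or 3 hours. GPS2 is a cofactor of transcription, and FCCP carries protons across the inner mitochondrial membrane and so uncouples respiration. Each siRNA without and with FCCP gives 4 groups of 1 library, and the question is how the nuclear response to uncoupling compares with and without GPS2. The labels give no dose of FCCP and no measure of knockdown. With 1 library per group no difference has a replicate check, no test was made, and every interval covers counting error only.

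The stretches were found on the 2 siCTL libraries pooled. Reads of mapping quality 10 or more were counted by their 5′ end in strand-specific windows of 10 kb on chromosomes 1 to 19. A stretch is a maximal run of at least 10 windows with at least 20 pooled reads in every window. There were 1613 such stretches among 12840 runs of any length, and they held 27009 of the 59507 windows with 20 or more reads, or 45.4%. The levels in siCTL therefore chose the members and are given as a description. The split of siCTL reads between 0 and 3 hours, and all siGPS2 reads, were not used by the rule.

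A polymerase that starts at a promoter has to travel the whole length of a long gene before that gene's RNA is complete, so GRO-seq over a long gene shows polymerases that left the start at different times. A change in the number that start shows first at the upstream end and moves downstream with the polymerases. Near the end of a gene, polymerases run on past the site where the RNA is cut and are released farther downstream. A long stretch can be 1 long gene or a string of neighbours on the same strand. Genes were not assigned here, since the reads are in mm8 and no mm8 annotation was used here, so stretches are named by position and strand, and the markers of preadipocytes and the targeted gene were not analysed here. Positions are 1-based.

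The stretches covered 270.1 Mb of single strands, 844 on plus and 769 on minus. Their median length was 140 kb and the longest was 1000 kb. By length, 877 spanned 100 to 140 kb, 362 spanned 150 to 190 kb, 255 spanned 200 to 290 kb and 119 spanned 300 kb or more. Their number ran from 45 on chromosome 19 to 148 on chromosome 2. The pooled siCTL level had a median of 96.8 reads per window and ran from 22.6 to 1667. It showed next to no relation to length (Spearman's rho -0.05 across the 1613 stretches, which share libraries). Near the rule's limit, the 259 runs of 10 windows had a median of 99.4 reads per window and the 285 runs of 9 windows, just outside, had 95 reads. The window before a stretch held a median of 1 pooled siCTL read and the window after it 7.

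Reads in the stretches numbered 1512801 in siCTL, 1574095 in siCTL with FCCP, 984015 in siGPS2 and 1015081 in siGPS2 with FCCP. That was 45.3%, 46.9%, 44.2% and 45.4% of each library's counted reads. The median stretch held 714, 739, 455 and 469 reads, and the fewest were 64, 62, 55 and 29. The libraries also differed in kind. Within windows, the variance of counts in bins of 200 bp was 1.17 times their mean in siCTL and 1.18 times in siCTL with FCCP, but 2.76 times in siGPS2 and 2.72 times in siGPS2 with FCCP (median stretch). Intervals that involve siGPS2 are therefore too narrow. By their read names, siCTL without FCCP was read on run 183, and the remaining 3 libraries together on run 189, so FCCP in siCTL spans both runs and FCCP in siGPS2 does not.

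Most stretches were covered in siGPS2 too. With the minimum lowered to 14 reads, in proportion to the pooled siGPS2 reads, 94.2% of the stretches' windows reached it. Only 922 stretches, 57.2%, reached it in every window, and 1471 did so in at least 80% of their windows. In 13 stretches fewer than 50% of windows did. Windows without a read numbered 16 in siGPS2 and 21 in siGPS2 with FCCP, against 0 in each siCTL library.

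Polymerase was spread nearly evenly from end to end. Each stretch was cut into 5 equal segments, numbered 1 at the upstream end to 5 at the downstream end. In siCTL the median shares of a stretch's reads were 20.04%, 20.3%, 19.6%, 19.6% and 18.5% from segment 1 to 5. In siCTL with FCCP they were 19.6%, 20.7%, 20.2%, 19.9% and 17.7%. In siGPS2 they were 18.5%, 19.5%, 19.3%, 19.1% and 19.7%, and in siGPS2 with FCCP 18.3%, 19.9%, 19.6%, 19.4% and 19.05%. Segment 1 was the fullest in 421 stretches in siCTL and 325 in siGPS2, and segment 5 in 315 and 408. Single stretches departed far from an even spread. The slope of a stretch, taken as log2 of the reads in its last 2 segments over its first 2 segments, had a median of -0.06 in siCTL but 5th and 95th percentiles of -1.37 and 1.13.

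**Figure D1:**
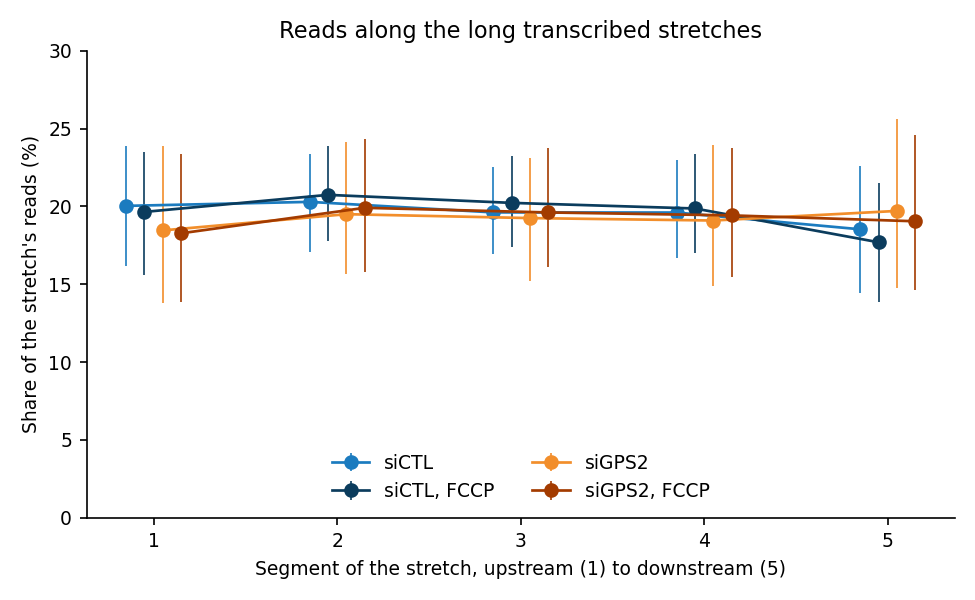
Share of a stretch's reads (percent, y axis) in each of 5 equal segments from the upstream to the downstream end (x axis), for the 4 libraries; points are medians over 1613 stretches and bars run from the lower to the upper quartile. The medians lie between 17.7% and 20.7%, with the siGPS2 libraries lower in segment 1 and higher in segment 5 than the siCTL libraries.

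The 5 stretches with most siCTL reads per window were between 100 and 220 kb long. The densest, the minus strand of chromosome 10 from 119750001 to 119890000, had 11012 siCTL reads, 12326 in siCTL with FCCP, 6973 in siGPS2 and 6126 in siGPS2 with FCCP. Also on chromosome 10, minus strand, 117040001 to 117250000 held 11077, 10535, 7892 and 7121 reads in the same order. That stretch is far from uniform, with 436, 252, 2401, 7840 and 148 siCTL reads in segments 1 to 5, and the same segment was the fullest in all 4 libraries. On chromosome 19, minus strand, 5750001 to 5970000 held 7983, 8507, 6200 and 6593 reads, of which 5461, 5966, 4743 and 4953 lay in segment 4. Chromosome 8, plus strand, 110180001 to 110280000 held 3650, 3605, 2986 and 2625 reads. Chromosome 19, plus strand, 8930001 to 9100000 held 6313, 4822, 3042 and 2603, with 3732 of the siCTL reads in segment 5. Their scaled FCCP ratios were small, from log2 -0.44 to 0.11 in siCTL and -0.25 to 0.07 in siGPS2.

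Counts were compared between libraries after division by a scale factor, the median, over 27619 windows that hold 20 or more reads in all 4 libraries, of the window's ratio to its geometric mean. To call a stretch higher or lower, 2 conditions had to hold. The scaled ratio, computed on reads plus 0.5, reached 1.5-fold, and its exact (Clopper-Pearson) interval, set to an error of 0.001 over both sides, did not include equality. Such calls compare libraries, not conditions.

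With FCCP most long stretches stayed under a 1.5-fold difference, and a minority were higher or lower. In siCTL 131 of the 1613 stretches were called higher with FCCP, 8.12%, against 4.28% of all 12840 runs. Another 145 were called lower, 8.99%, against 8.43% of all runs. Runs of 50 to 90 kb stood at 6.93% higher and 13.1% lower. In siGPS2 72 stretches were called higher, 4.46%, against 2.05% of all runs, and 43 lower, 2.67%, against 2.46%. Runs of 50 to 90 kb stood at 4.08% higher and 4.12% lower there. The shares called lower are near those of all runs and below those of runs of 50 to 90 kb. The shares called higher lie above those of all runs but near those of runs of 50 to 90 kb. All runs include short ones, and a run with few reads has a wide interval and is called less easily. The median log2 ratio over the stretches was -0.02 in siCTL and 0.01 in siGPS2, beside -0.14 and -0.06 over all runs. The 5th and 95th percentiles were -0.77 and 0.70 in siCTL, narrowing to -0.46 and 0.56 under siGPS2.

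By length, the share called higher in siCTL was 7.75% at 100 to 140 kb, 6.91% at 150 to 190 kb, 8.63% at 200 to 290 kb and 13.4%, or 16 of 119, at 300 kb or more. The share called lower was 9.12%, 7.46%, 9.80% and 10.9%. In siGPS2 the shares called higher were 4.33%, 3.87%, 5.49% and 5.04%, and those called lower 3.08%, 2.21%, 1.96% and 2.52%. Neither siRNA showed a steady order with length, and the differences between lengths were not tested.

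The FCCP calls under the 2 siRNAs, which share no library, picked many of the same stretches. Both siRNAs called 53 stretches higher, which is 40.5% of the siCTL list and 73.6% of the siGPS2 list. Both called 33 lower, which is 22.8% and 76.7% of the lists. Of all 1613 stretches, 8.12% were called higher in siCTL and 4.46% in siGPS2, and 8.99% and 2.67% lower. No stretch was called in opposite directions. Of the 131 higher in siCTL, 127 lay above 0 in siGPS2, with a median log2 ratio of 0.52 there (quartiles 0.33 and 0.75) and 0.80 in siCTL. Of the 145 lower in siCTL, 141 lay below 0 in siGPS2, with medians of -0.41 there and -0.81 in siCTL. Over all 1613 stretches, 830 lay above 0 in siGPS2 and 783 below. Choice in siCTL leans the siCTL median away from 0. Among the stretches chosen in siGPS2 instead, the 72 higher had medians of 0.91 in siCTL and 0.75 in siGPS2, and 45 of them moved further in siCTL. The 43 lower had -0.99 and -0.75, and 30 moved further in siCTL. Across all 1613 stretches Pearson's r between the 2 ratios was 0.80 and Spearman's rho 0.75, as a description. Pile-ups were also thinned, so that a read within 10 bp of the previous one on its strand is not counted. Thinning removed 14.6% of the stretches' reads in siCTL and 14.8% in siCTL with FCCP. It removed 36.8% in siGPS2 and 35.2% in siGPS2 with FCCP, so it weighs unequally on the siRNAs. With pile-ups thinned, 21 stretches were called higher and 25 lower in siGPS2.

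**Figure D2:**
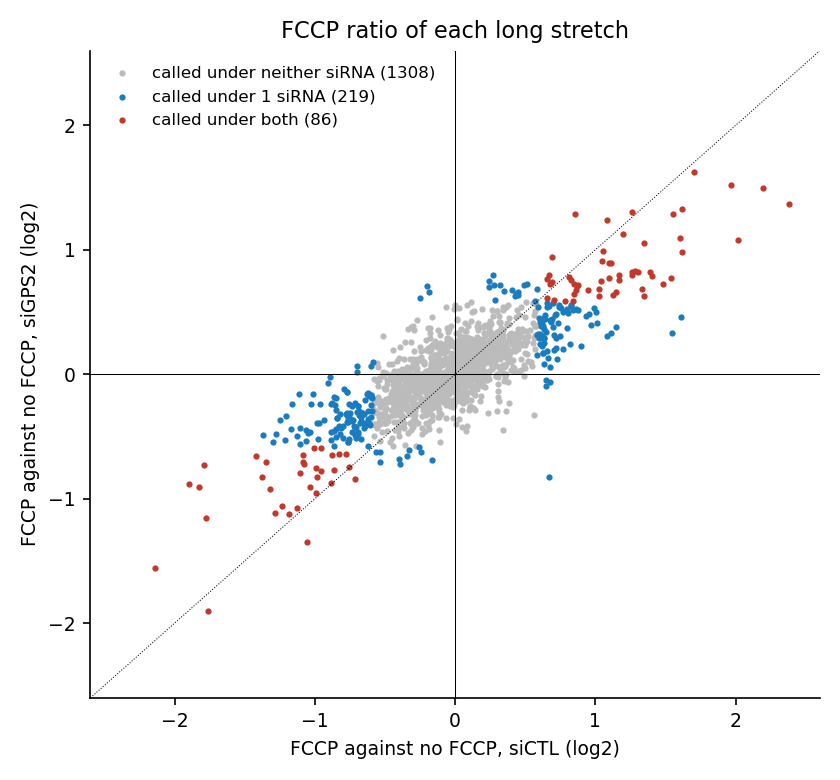
Scaled log2 ratio of FCCP to no FCCP for each of the 1613 stretches in siCTL (x axis) and siGPS2 (y axis); colours show whether a stretch was called under neither siRNA (1308), 1 siRNA (219) or both in the same direction (86), and the dotted line marks equal ratios. The 86 stretches called under both lie in the upper right and lower left only, and the siCTL ratios spread more widely than the siGPS2 ratios.

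In the stretches named next as highest or lowest with FCCP, every segment differed in the same direction under both siRNAs. They were ranked on the whole stretch, which favours such cases. Sizes could vary by segment, as in siCTL on chromosome 10 (25670001), with log2 ratios of -0.62 in segment 3 and -2.93 in segment 4. On chromosome 9, plus strand, 51520001 to 51620000 held 98 reads in siCTL, 331 in siCTL with FCCP, 95 in siGPS2 and 298 in siGPS2 with FCCP. Both libraries with FCCP were high and both without were low. After scaling, siCTL gave a log2 ratio of 1.70 (3.25-fold, with counting limits of 1.38 and 2.05 at 95%), and siGPS2 gave 1.62 (3.08-fold, 1.29 to 1.98). The minus strand of chromosome 3 from 127140001 to 127400000, a stretch of 260 kb, held 329, 1336, 366 and 1067 reads in the same order. It was 3.92-fold higher with FCCP in siCTL (log2 1.97, 1.80 to 2.15) and 2.87-fold in siGPS2 (1.52, 1.35 to 1.70). Its 5 segments went from 53, 68, 61, 87 and 60 reads to 215, 252, 271, 335 and 263 in siCTL, so the downstream end had gained as much as the upstream end. With pile-ups thinned the siGPS2 log2 ratio of the whole stretch was 1.00.

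Chromosome 9, plus strand, 64610001 to 64730000 held 222, 1053, 243 and 699 reads, 4.57-fold and 2.83-fold higher with FCCP. Chromosome 15, minus strand, 43600001 to 43700000 held 64, 348, 107 and 282 reads, 5.22-fold (log2 2.38, 2.00 to 2.80) and 2.59-fold (1.37, 1.05 to 1.71) higher. These 4 stretches are the highest by the siGPS2 ratio among the 69 that were at least 1.5-fold higher there and above 0 in siCTL. In them the 2 libraries with FCCP did not overlap the 2 without, which such a choice favours. The share of all stretches so separated was not counted.

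Among the 43 stretches at least 1.5-fold lower in siGPS2 and below 0 in siCTL, the lowest was on chromosome 10, minus strand, from 25670001 to 25770000. It held 204 reads in siCTL, 62 in siCTL with FCCP, 108 in siGPS2 and 29 in siGPS2 with FCCP. That is 3.39-fold lower in siCTL (log2 -1.76, -2.20 to -1.35) and 3.74-fold lower in siGPS2 (-1.90, -2.56 to -1.32). Chromosome 12, plus strand, 17710001 to 17820000 held 313, 73, 108 and 37 reads, 4.42-fold and 2.94-fold lower with FCCP. This stretch was also low in siGPS2 without FCCP, 2.02-fold under siCTL. Chromosome 3, plus strand, 126350001 to 126450000 held 464, 231, 312 and 124 reads, 2.08-fold and 2.55-fold lower.

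Chromosome 3, plus strand, 129520001 to 129640000 held 1148, 346, 555 and 253 reads, 3.43-fold and 2.23-fold lower with FCCP (log2 -1.78 and -1.15). With pile-ups thinned the siGPS2 log2 ratio was -0.72. Its segments went from 269, 256, 159, 186 and 278 reads to 85, 81, 46, 56 and 78 in siCTL. In siGPS2 they went from 142, 125, 54, 83 and 151 to 64, 53, 31, 44 and 61. Every segment was lower, and the outline of the stretch, with its fuller ends, was kept.

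The called stretches as a group were also measured by segment. In the 131 higher in siCTL, the median log2 ratio in siGPS2, which did not choose them, was 0.52, 0.54, 0.57, 0.56 and 0.44 from segment 1 to 5. In the 145 lower it was -0.49, -0.48, -0.33, -0.42 and -0.43. These are medians, and single stretches varied. In siGPS2 104 of the 131 were higher in all 5 segments, 79.4%, beside 20.1% of all stretches. Of the 145, 79 were lower in all 5 segments there, 54.5%, beside 14.2% of all stretches. Over all stretches together, summed reads gave log2 ratios of -0.03, 0.03, 0.06, 0.02 and -0.05 from segment 1 to 5 in siCTL, and -0.01, 0.03, 0.06, 0.04 and -0.02 in siGPS2. Under both siRNAs the middle segment stood highest, but these differences are small beside the spread between stretches, whose quartiles in segment 3 were -0.32 and 0.30 for siCTL, and for siGPS2 -0.20 and 0.30.

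**Figure D3:**
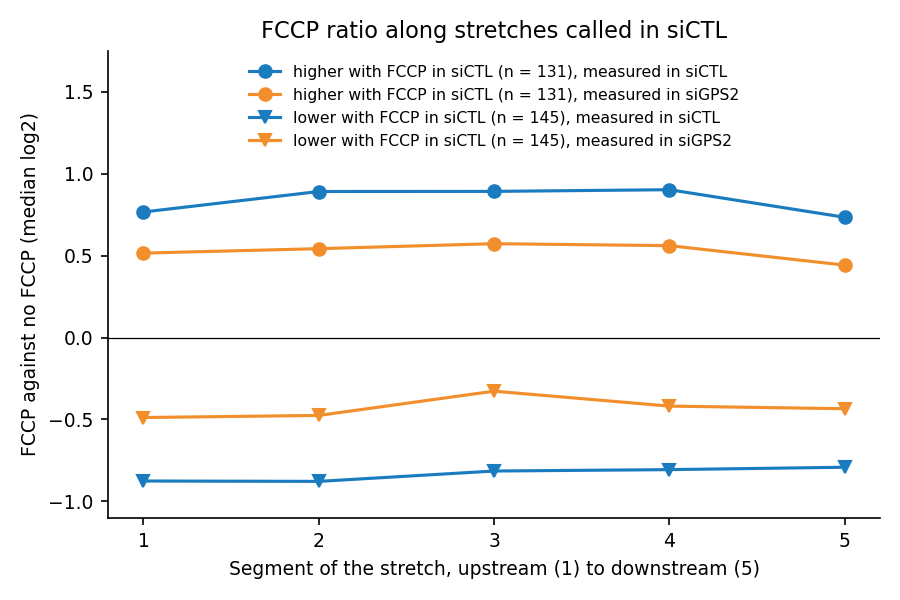
Median log2 ratio of FCCP to no FCCP (y axis) in each of 5 segments (x axis) for the 131 stretches called higher and the 145 called lower in siCTL, measured in siCTL and in siGPS2. The lines run nearly level from end to end, at 0.44 to 0.57 and -0.49 to -0.33 in siGPS2; the siCTL lines were chosen on the same reads.

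In other stretches the slope differed with FCCP more than the whole level. The longest stretch, on chromosome 8, plus strand, from 121160001 to 122160000, held 10513 reads in siCTL, 7234 in siCTL with FCCP, 6302 in siGPS2 and 5606 in siGPS2 with FCCP. Segments 1 to 5 held 4004, 2680, 1993, 1480 and 356 reads in siCTL and 2296, 1529, 1490, 1399 and 520 in siCTL with FCCP. In siGPS2 they went from 1980, 1569, 1428, 992 and 333 to 1492, 1226, 1220, 1051 and 617. The scaled log2 ratio thus climbed from -0.85 in segment 1 to 0.50 in segment 5 in siCTL, and from -0.43 to 0.87 in siGPS2. The upstream end was lower and the downstream end higher with FCCP under both siRNAs.

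Chromosome 8, minus strand, 51750001 to 52420000 showed the same turn with nearly the same total, 2760, 2898, 2534 and 2879 reads in the 4 libraries. In siCTL its segments went from 963, 938, 402, 227 and 230 reads to 648, 877, 550, 356 and 467. In siGPS2 they went from 872, 777, 337, 273 and 275 to 672, 856, 434, 362 and 555. The log2 ratio ran from -0.62 in segment 1 to 0.97 in segment 5 in siCTL and from -0.40 to 0.99 in siGPS2. A ratio taken over the whole stretch was 0.02 in siCTL and 0.16 in siGPS2, which hides this.

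The other 3 of the 5 longest changed less in slope. Chromosome 9, minus strand, 116410001 to 117110000 held 2910, 2750, 2149 and 2099 reads, and its slope changed by -0.12 in siCTL and -0.20 in siGPS2. Chromosome 6, plus strand, 33180001 to 33910000 held 3684, 3886, 2296 and 2284 reads, with slope changes of 0.17 in siCTL and 0.34 in siGPS2. Chromosome 16, plus strand, 24300001 to 24930000 held 6225, 8296, 4171 and 4474 reads. It was 1.29-fold higher with FCCP in siCTL and 1.06-fold in siGPS2.

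**Figure D4:**
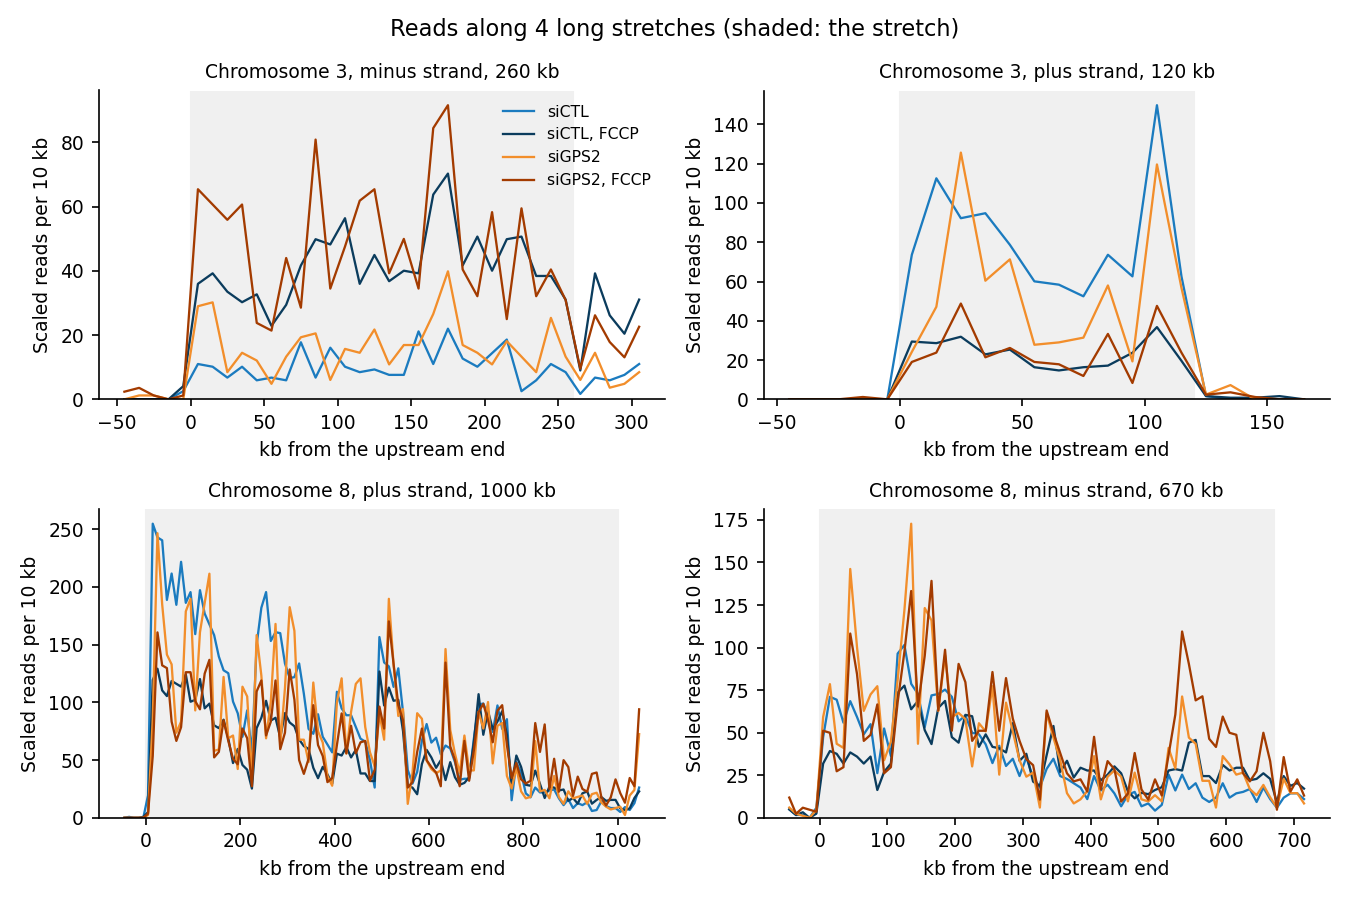
Reads per 10 kb window divided by the library's scale factor (y axis) against distance from the upstream end (kb, x axis) for 4 stretches chosen after their values were seen, with 50 kb on either side; shading marks the stretch. In the upper panels the lines with FCCP lie above (chromosome 3, minus) or below (chromosome 3, plus) those without along the whole stretch, and in the lower panels, both on chromosome 8, the lines with FCCP start lower and end higher.

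Across all 1613 stretches the slope change with FCCP was centred near 0, with a median of -0.02 in siCTL and 0.01 in siGPS2. In siCTL its quartiles were -0.22 and 0.17, and in siGPS2 they were -0.18 and 0.18. The median was -0.05 in siCTL and -0.01 in siGPS2 in stretches of 100 to 140 kb, and 0.08 and 0.07 in the 119 of 300 kb or more. The change was upward under both siRNAs in 476 stretches and downward under both in 516. It was beyond 0.5 in size under both siRNAs in 26 upward, in 30 downward, and in 4 with opposite signs. Pearson's r between the 2 changes was 0.45 across stretches.

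The 3 stretches with the strongest downstream turn under both siRNAs were 130 to 260 kb long. On chromosome 3, plus strand, 95670001 to 95930000 went from 253, 939, 498, 152 and 62 reads in segments 1 to 5 to 229, 1050, 942, 491 and 226 with FCCP in siCTL. In siGPS2 it went from 229, 682, 658, 212 and 91 to 226, 621, 913, 494 and 230. The upstream segments were nearly level while segment 5 gained 1.81 in siCTL and 1.31 in siGPS2 (log2). This stretch overlaps a member on the opposite strand, with 53.5 opposite-strand reads per 100 in siCTL. Chromosome 17, plus strand, 55920001 to 56050000 held only 409, 228, 128 and 128 reads, and its slope changed by 1.07 in siCTL and 1.5 in siGPS2, where segment 4 held as few as 4 reads. Chromosome 15, plus strand, 76150001 to 76280000 held 564, 572, 294 and 336 reads, and changed by 1.02 and 1.44; its upstream 2 segments were lower and the other 3 higher with FCCP under both siRNAs.

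Turns the other way were steepest on chromosome 18, plus strand, from 35890001 to 36010000. Its segments 4 and 5 went from 98 and 55 reads to 32 and 17 in siCTL, and from 24 and 41 to 10 and 18 in siGPS2. Segment 1 went from 227 to 250 and from 108 to 105. Chromosome 2, minus strand, 156780001 to 156900000 changed in slope by -0.91 in siCTL and -1.04 in siGPS2, on 309, 272, 203 and 148 reads. Chromosome 19, plus strand, 38900001 to 39060000 changed by -0.87 and -0.92, on 1103, 923, 715 and 596 reads. In each of these 3 stretches the downstream end was lower with FCCP under both siRNAs. Whether they hold 1 gene or several was not analysed here.

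Windows beside the stretches were examined next. On each side, 1519 stretches had no other member in the 5 windows beyond that end. The first window past that end held 5806 reads in siCTL and 5669 in siCTL with FCCP, and 6231 in siGPS2 and 7547 in siGPS2 with FCCP. By the rule this window had at most 19 pooled siCTL reads, which sets its siCTL level but not how those reads divide between 0 and 3 hours. The scaled log2 ratio for FCCP was -0.08 in siCTL (95% interval -0.14 to -0.03) and 0.25 in siGPS2 (0.21 to 0.30). The fullest single window held 46 reads in each siGPS2 library. With FCCP 727 windows were higher and 640 lower in siGPS2, and 563 higher and 800 lower in siCTL. Over all 5 windows the ratio lay between -0.16 and -0.08 in siCTL, and in siGPS2 it was 0.08 in the second window and -0.05 in the last.

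Summed over all 5 windows, reads beyond the end came to 18.8 per 100 reads of segment 5 in siCTL and 18.0 in siCTL with FCCP. In siGPS2 they came to 18.7, and in siGPS2 with FCCP to 19.7. Only other members were left out of these windows, so shorter runs remain in the sums. In siCTL summed reads rose from 5806 in the first window to 12411 in the last, where a single window held up to 446. The part of neighbouring runs in the sums was not tested. Relative to segment 5 the log2 change with FCCP was -0.06 in siCTL (-0.08 to -0.05) and 0.07 in siGPS2 (0.05 to 0.09). Before the upstream end FCCP ratios were below 0 under both siRNAs, -0.28 in siCTL and -0.09 in siGPS2 in the nearest window. The difference between the siRNAs was not tested. The siCTL pair spans 2 sequencing runs and the siGPS2 pair shares 1 lane, and the part of this in the difference was not tested.

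**Figure D5:**
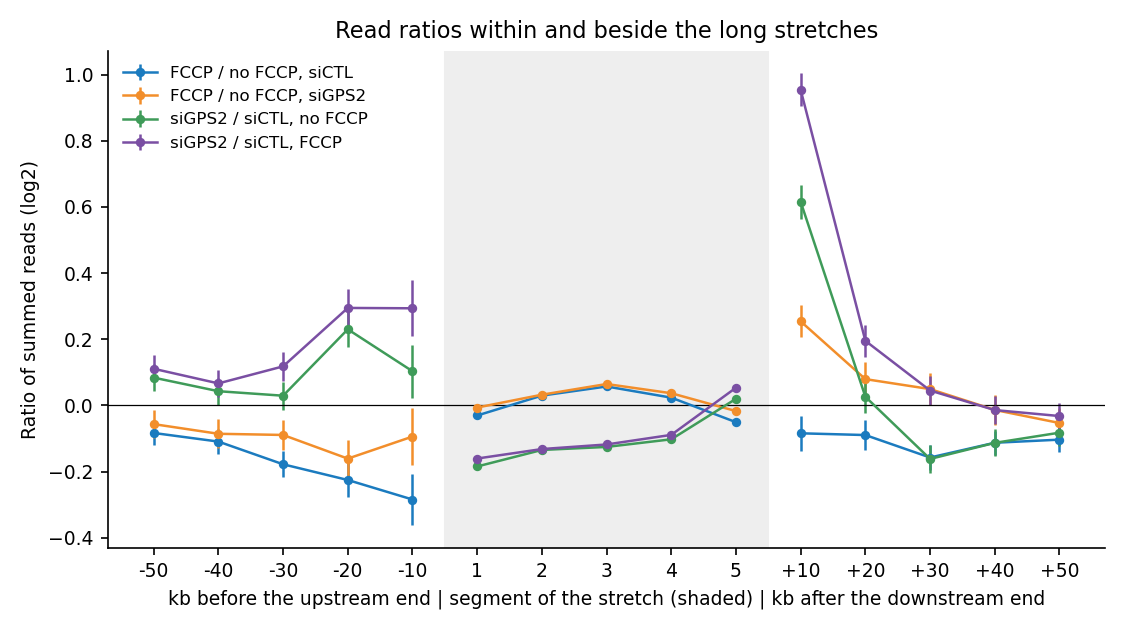
Scaled log2 ratio of reads summed over stretches (y axis) in 5 windows before the upstream end, the 5 segments (shaded) and 5 windows after the downstream end (x axis) for the 4 comparisons of libraries, with exact 95% intervals for counting error; flanking windows are from 1519 stretches and segments from 1613. Past the downstream end FCCP lies at 0.25 in siGPS2 and -0.08 in siCTL, and the siGPS2 to siCTL ratios at 0.62 and 0.95 stand on windows that the rule required to be low in siCTL.

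Stretches were compared between siGPS2 and siCTL in each FCCP state. Since siCTL reads chose the stretches, these ratios lean downward, and they are a description. The pair without FCCP was read on runs 183 and 189, and the pair with FCCP on run 189 only. The part of this in any difference between the states was not tested. Without FCCP 26 stretches were called higher in siGPS2, 1.61%, against 3.75% of all runs, and 174 lower, 10.8%, against 7.52%. With FCCP 28 were called higher, 1.74%, against 3.69%, and 79 lower, 4.90%, against 4.28%. Runs of 5 to 9 windows stood at 3.43% higher and 12.4% lower without FCCP, and 4.57% higher and 6.89% lower with it. In each state the share of stretches called lower lay above that of all runs but below that of runs of 5 to 9 windows. The share called higher lay below both. The median log2 ratio over the stretches was -0.13 without FCCP and -0.10 with it, beside -0.16 and -0.11 over all runs. Both states called 6 stretches higher, 23.1% and 21.4% of the lists, and 48 lower, 27.6% and 60.8% of the lists. With pile-ups thinned, 29 were higher and 90 lower without FCCP. With FCCP 27 were then higher and 20 lower, so the balance of calls turned. The higher calls made up 13.0% of all calls without FCCP and 26.2% with it, 28.6% and 38.5% when total reads set the scale, and 24.4% and 57.4% with pile-ups thinned.

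Of the 49 stretches at least 1.5-fold lower in siGPS2 in both states, the 4 with the lowest mean of the 2 log2 ratios are given. On chromosome 1, minus strand, the stretch from 120660001 to 120830000 held 674 reads in siCTL, 342 in siCTL with FCCP, 145 in siGPS2 and 125 in siGPS2 with FCCP. That is 3.25-fold lower without FCCP (log2 -1.70, -1.97 to -1.44) and 1.88-fold lower with it (-0.91, -1.22 to -0.61). With pile-ups thinned the log2 ratio with FCCP was -0.50, short of 1.5-fold. With FCCP, siCTL reads were 2.04-fold lower, and siGPS2 reads 1.18-fold lower (log2 -0.24, -0.59 to 0.12). Chromosome 8, minus strand, 128290001 to 128460000 held 980, 766, 314 and 233 reads, 2.18-fold and 2.26-fold lower in siGPS2. Chromosome 12, plus strand, 30520001 to 30630000 held 866, 550, 268 and 191 reads, 2.26-fold and 1.98-fold lower.

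Chromosome 4, plus strand, 136740001 to 136850000 held 1900, 1014, 551 and 372 reads, 2.41-fold lower in siGPS2 without FCCP (log2 -1.27) and 1.87-fold with it (-0.90). With pile-ups thinned these log2 ratios were -0.50 and -0.29, both short of 1.5-fold. The deficit was uneven, since segment 4 held 586 reads in siCTL and 114 in siGPS2 while segment 5 held 424 and 237. In all 4 of these stretches both siGPS2 libraries lay below both siCTL libraries, which choice by the lowest ratios favours. How many of all stretches show this was not counted.

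Few stretches were higher in siGPS2 in both states: 6 reached 1.5-fold in each. The minus strand of chromosome 13 from 55210001 to 55340000 held 243, 456, 361 and 897 reads, 2.12-fold higher without FCCP (log2 1.08, 0.85 to 1.33) and 2.86-fold with it (1.52, 1.35 to 1.68). This stretch overlaps a member on the opposite strand and had 251 opposite-strand reads per 100 of its own in siCTL. It was also 1.81-fold higher with FCCP in siCTL and 2.44-fold in siGPS2. Chromosome 13, plus strand, 90210001 to 90310000 held 176, 252, 229 and 339 reads, 1.86-fold and 1.96-fold higher, and it too overlaps a member on the other strand. Chromosome 3, plus strand, 16830001 to 16940000 held 166, 237, 233 and 282 reads, 2.00-fold (log2 1.00) and 1.73-fold (0.79) higher. Without its first and last window the log2 ratios were 0.48 and 0.25, both short of 1.5-fold. Chromosome 16, minus strand, 56720001 to 56820000 held 238, 366, 307 and 470 reads, 1.84-fold and 1.87-fold higher.

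Along the stretches, siGPS2 reads were weighted to the downstream end relative to siCTL. Summed reads gave log2 ratios of -0.18, -0.13, -0.13, -0.10 and 0.02 from segment 1 to 5 without FCCP, and -0.16, -0.13, -0.12, -0.09 and 0.05 with FCCP. Segment 1 was the lowest and segment 5 the highest in both states. The median slope change was 0.11 without FCCP and 0.12 with it, and it was upward in both states in 784 stretches and downward in both in 456. In the 119 stretches of 300 kb or more it was 0.16 and 0.15. In their first window the median siGPS2 to siCTL log2 ratio was -0.61 without FCCP and -0.43 with it, and in the next window -0.19 and -0.22. Much of this lay in the end windows: without the first and last window of each stretch the medians were 0.04 and 0.06. On stretches found on the siGPS2 libraries instead, the medians were 0.12 and 0.14. Both siGPS2 libraries hold more pile-ups than both siCTL libraries, and a difference of library preparation cannot be told apart from the knockdown. With pile-ups thinned the medians stood at 0.12 and 0.12.

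The opposite strand was nearly silent inside most stretches and less so at their ends. A member on the other strand overlapped 99 of the 1613, and the other 1514 were used here. Opposite-strand reads came to 6.38 per 100 reads of the stretch in siCTL, 6.01 in siCTL with FCCP, 7.34 in siGPS2 and 6.86 in siGPS2 with FCCP. The median stretch had 3.00, 2.78, 3.47 and 3.10. In siCTL segments 1 to 5 had 8.996, 3.42, 3.23, 4.04 and 12.9 per 100, and in siGPS2 10.9, 4.35, 4.24, 5.04 and 12.3. The ends were thus the places where the other strand was read most in both libraries, segment 5 above segment 1. With FCCP these values were slightly lower in every segment, 8.56 and 12.2 at the ends in siCTL and 10.3 and 11.6 in siGPS2. No opposite-strand read was found in 36, 40, 47 and 42 stretches.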

How the data were processed

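The deposited files list aligned GRO-seq reads, 1 line per read, giving its position, its strand and a score. Per the submitters' processing notes the tools were Bowtie and HOMER and the build mm8. Filters and versions: not given in the sources used here. A score of 0 to 42, deposited by the authors with each read, was read as mapping quality. Each file holds 4200000 lines, or 4200001 in siCTL with FCCP, so the sequenced depth is not known from them, and 1 incomplete line was removed from each of the other 3. Reads of quality 10 or more on chromosomes 1 to 19 numbered 3342833, 3352850, 2223803 and 2236708. Scale factors were 1.18, 1.22, 0.828 and 0.841. Named stretches are the 5 longest, the 5 densest, 4 highest and 4 lowest for FCCP and for siGPS2, and 3 per direction for slope. Members, lists and rules were chosen with earlier results of these data known. Python 3.11.15, NumPy 2.4.6 and SciPy 1.17.1 were used. Calls, intervals and slope changes, but not the counting of reads, were tested on simulated window counts. Those counts were drawn with variance equal to their mean, so the test does not cover the wider spread of the siGPS2 libraries. Alternatives were total reads as scale, quality 42, thinned pile-ups, a minimum of 40 reads, trimmed ends and, added after seeing the data, stretches found on siGPS2.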

Additional observations from a re-analysis of the deposited data

Results flagged for a closer look

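Reads beyond the downstream end, relative to segment 5, differed in direction between the siRNAs: the log2 change with FCCP was -0.0644 in siCTL and 0.0733 in siGPS2. The difference itself was not tested, and the windows summed can hold shorter neighbouring runs. In the first window past the end the ratios were -0.12 and 0.29 on reads of quality 42, -0.13 and 0.18 with pile-ups thinned, and -0.14 and 0.25 for stretches found on siGPS2.

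Reads of quality below 10 on the strand of the stretches, which no comparison above uses, made up 17.99% in siGPS2 and 17.6% in siGPS2 with FCCP. These shares lay above the 10.5% and 10.2% of the siCTL libraries. The gap was wider over whole libraries. There, 81.9% of reads reached quality 10 in siCTL and 82.3% in siCTL with FCCP, against 54.7% in siGPS2 and 55.1% in siGPS2 with FCCP.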

How the results depend on the processing

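No paired analysis was possible because each group has 1 library and the labels give no replicate numbers; leaving out a library leaves no comparison. Of the summary values recomputed, 54 moved by less than their limits, 49 moved further and 1 reversed; the cause was not tested. With total reads as scale, siGPS2 without FCCP had 46 stretches higher and 115 lower. On quality 42 the FCCP slope change in siGPS2 was -0.018, reads beyond the end for siGPS2 against siCTL were -0.062 without and 0.085 with FCCP, and opposite-strand reads per 100 in the 4 libraries were 6.19, 5.87, 6.87 and 6.44. With pile-ups thinned, FCCP calls in siGPS2 were 21 higher and 25 lower, siGPS2 calls were 29 higher and 90 lower without FCCP and 27 higher and 20 lower with it, reads beyond the end were 0.18 and 0.30, and opposite-strand reads were 6.15, 5.82, 7.60 and 7.17. Thinning also reversed 2 small FCCP ratios of dense stretches, to -0.12 in siCTL on chromosome 10 (119750001) and to -0.094 in siGPS2 on chromosome 19 (5750001). With at least 40 reads per window 1117 stretches remained: 82 were lower with FCCP in siCTL, 41 higher and 28 lower in siGPS2, and 16 and 12 higher in siGPS2 without and with FCCP. Reads beyond the end were then -0.041 and 0.10 for FCCP and 0.022 and 0.16 for siGPS2, the siGPS2 slope change with FCCP 0.10, and opposite-strand reads 4.79, 4.55, 5.73 and 5.44. Without the end windows the siGPS2 slope changes were 0.043 and 0.058, opposite-strand reads were 4.22, 4.06, 5.12 and 4.87, and reads beyond the end could not be taken. On the 1433 stretches found on siGPS2, an alternative chosen after seeing the data, 88 were lower with FCCP in siCTL, and 99 and 50 lower in siGPS2 without and with FCCP. Reads beyond the end were -0.085 and 0.035 for FCCP and -0.18 for siGPS2 without FCCP; with FCCP they reversed, from 0.13 to -0.058. Opposite-strand reads were 6.32, 5.88, 7.22 and 6.71. Depth limits single segments most, since the thinnest stretch held 29 reads in 1 library.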
